A study of Homo sapiens with 6 samples.

Results

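The integrin and laminin subunit genes are 2 families that meet at the cell surface. They were taken from the deposited gene table as every protein-coding gene whose symbol is an integrin alpha or beta subunit or a laminin alpha, beta or gamma chain. This gave 38 of the 58735 genes listed, made up of 18 integrin alpha, 8 integrin beta and 12 laminin genes. Their messenger RNA was measured by poly(A) RNA-seq in MDA-MB-231, a human triple-negative breast cancer (TNBC) cell line established from a metastatic adenocarcinoma and labelled wild type in every sample. Cells received either SCH, an aqueous extract of the herb Salvia chinensis Benth, at 100 mg/l for 24 h, or vehicle, whose composition is not given in the sources used here. There were 3 samples in each group, and the study describes them as biological repeats of a single cell line. SCH is a mixture, so no value here belongs to a single compound. The dose is stated as raw herb equivalent. The labels give RPMI-1640 as the medium of these cells and the methods give DMEM.

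Integrins are receptors made of 1 alpha and 1 beta subunit that span the plasma membrane and join the extracellular matrix to actin or, in the case of the alpha6beta4 integrin, to keratin filaments. Laminins are secreted trimers of 1 alpha, 1 beta and 1 gamma chain, and they form the sheet of the basement membrane on which epithelial cells sit. A subunit works only with its partners. The beta1 subunit pairs with many alpha subunits, alphaV pairs with several beta subunits, and laminin trimers that hold the LAMA3 and LAMB3 chains are major ligands of the alpha3beta1 and alpha6beta4 integrins. In breast cancer both families are studied for their part in attachment, migration and invasion.

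The libraries held 18334857 to 20291379 counted fragments with vehicle and 16836369 to 18414924 with SCH. MDA-MB-231 is a mesenchymal-like line without oestrogen receptor. Its labelled identity was checked against markers: ESR1, the oestrogen receptor, was at 0.0152 FPKM (fragments per kilobase of exon scaled to library size, a level per gene length) with vehicle, and CDH1, the epithelial cadherin, at 0.0401 FPKM. Other markers of the luminal and epithelial lists were present. GATA3, a luminal factor, was at 3.84 FPKM with vehicle and fell to 2.24, and FOXA1, another, rose from 0.995 to 2.24 FPKM. The epithelial junction list summed to 23.4 to 25.6 FPKM with vehicle and 24.8 to 27.1 FPKM with SCH, as CLDN4 rose from 17.6 to 21.0 FPKM and EPCAM fell from 6.53 to 4.59 FPKM. The mesenchymal-like markers AXL, VIM, ANXA1, MSN and CD44 were all abundant, and their sum was 906 to 924 FPKM with vehicle and 672 to 684 FPKM with SCH. Of these 5 markers 4 fell, with AXL at -0.84 and VIM, with 24.4% of its exonic bases shared with other genes, at -0.56 on the log2 scale. Whether this movement bears on the subunit genes was not tested. The leukocyte marker list summed to 0.432 to 0.946 FPKM over the 6 libraries, with CD14 the most abundant, and PTPRC, the pan-leukocyte phosphatase, fell from 0.210 to 0.0307 FPKM. Since whole cultures were sequenced, fewer cells of a type and less RNA per cell cannot be told apart.

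SCH treatment changed many genes in these cells. By edgeR's quasi-likelihood test with Benjamini-Hochberg adjustment, 58.7% of the 14736 genes tested passed an adjusted p of 0.05, 29.3% raised and 29.4% lowered. Of the 38 subunit genes, 25 had enough counts to be tested, and 14 of these (56%) changed. Of those, 6 were raised and 8 were lowered. The share of subunit genes that changed was therefore near that of all genes. Their median log2 fold change was -0.07, against -0.0034 for all genes tested. In 15 of the 25 the SCH and vehicle samples did not overlap in CPM (counts scaled to library size), a pattern seen in 62.4% of all genes. Changes of at least 0.5 on the log2 scale were found for 5 subunit genes (26.8% of all genes), and of at least 1 for LAMA4 only (8.77% of all genes). With library totals as the only scale the 6 raised and 8 lowered became 9 and 7. The same setting gave a median of 0.10 over all genes tested, and the raised share among genes past the threshold was 62.6% instead of 49.9%.

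**Figure D1:**
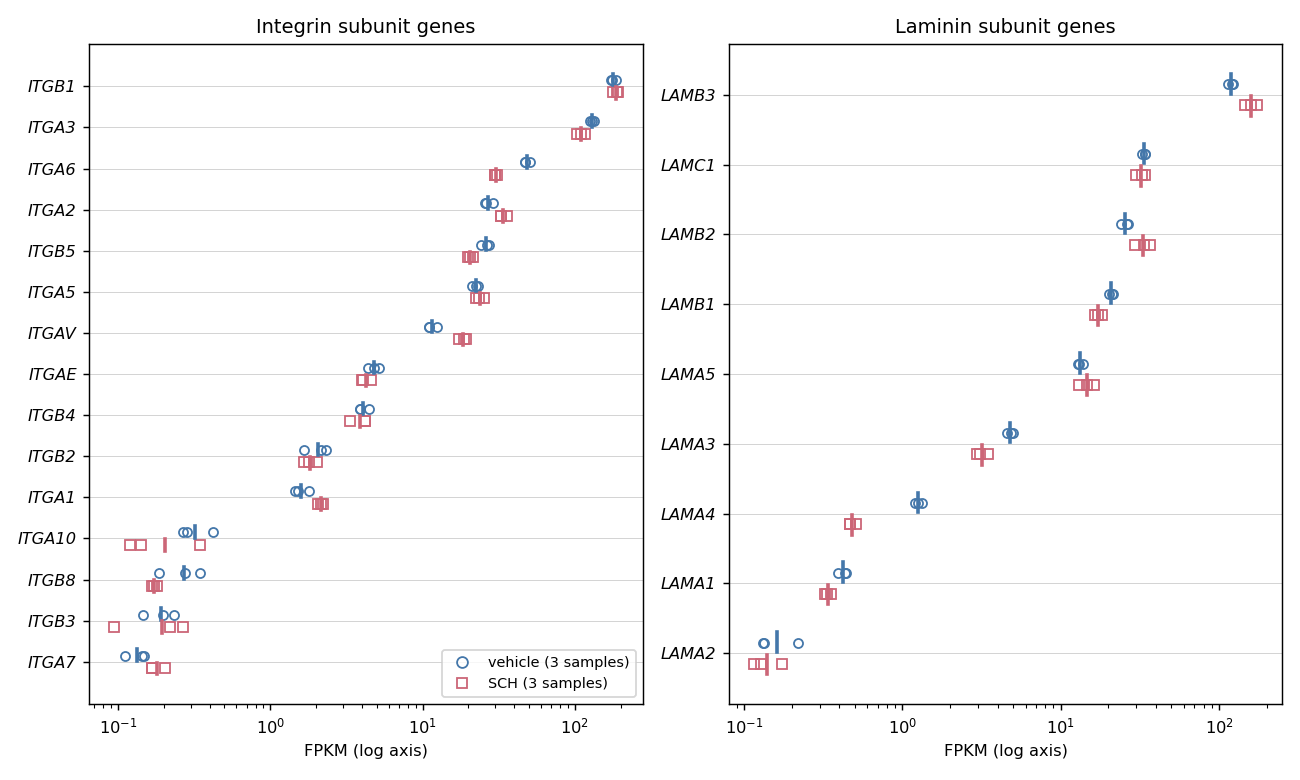
FPKM in each sample of tested subunit genes, on a log axis, with integrin genes on the left and laminin genes on the right; circles are vehicle, squares are SCH, and the short vertical bars are group means of 3 samples. ITGB1, ITGA3 and LAMB3 sit highest, all above 100 FPKM, and LAMA4, ITGA6 and ITGAV have groups that stand well apart.

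Among the integrin alpha subunits listed here as laminin-binding, ITGA6 and ITGA3 both fell. ITGA6 (ENSG00000091409, GRCh38 chr2:172427354-172506282) encodes the alpha6 subunit, which pairs with beta1 or beta4. It stood at 46.7, 47.3 and 50.4 FPKM in the 3 vehicle samples and at 30.8, 30.01 and 29.8 FPKM in the 3 SCH samples. All SCH samples were lower than all vehicle samples. The log2 fold change was -0.68 ± 0.048 (SE) with an edgeR quasi-likelihood adjusted p of 2.85e-11, or 0.624 times the vehicle level. Exons of other genes cover 5.37% of its exonic bases. ITGA3 (ENSG00000005884, chr17:50055968-50090481), the alpha3 subunit, was the most abundant alpha subunit. Its levels were 129, 134 and 125 FPKM with vehicle and 116, 109 and 103 FPKM with SCH. The groups again did not overlap, but the change was small, at -0.25 ± 0.048 (SE) on the log2 scale with an edgeR quasi-likelihood adjusted p of 1.00e-04. ITGA7, the other alpha subunit in this list, was at a log2 fold change of 0.41 and did not pass the test. All of its SCH samples lay above the vehicle samples, on summed counts of 49 with vehicle and 65 with SCH. The list is not every alpha subunit that can bind laminin.

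ITGAV moved the other way. The alphaV subunit (ENSG00000138448, chr2:186590065-186680901) is the common partner of the beta3, beta5, beta6 and beta8 subunits and binds ligands with the RGD motif. The 3 vehicle samples gave 11.0, 11.1 and 12.4 FPKM, and the 3 SCH samples gave 18.8, 19.2 and 17.5 FPKM. The lowest SCH sample was well above the highest vehicle sample. The log2 fold change of 0.68 ± 0.057 (SE), 1.60 times the vehicle level, was the highest among the subunit genes tested, with an edgeR quasi-likelihood adjusted p of 4.42e-10. Its family neighbour by ligand, ITGA5, the fibronectin receptor subunit, was at 0.08 and did not pass. The collagen-binding subunits ITGA1 and ITGA2 rose by 0.43 and 0.32 on the log2 scale. ITGA10, the low-abundance collagen-binding subunit, was at -0.67 with an adjusted p of 0.0805 by edgeR's quasi-likelihood test. Leaving out the SCH sample of replicate 2, the highest of its group, took ITGA10 to -1.29 and past the threshold.

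Of the 8 beta subunits 6 were tested, and none rose while 2 fell (29.3% and 29.4% of all genes). ITGB1 (ENSG00000150093, chr10:32900319-33005792), the shared partner of most alpha subunits and the most abundant of the 38 genes, was measured at 173, 175 and 185 FPKM with vehicle and 179, 191 and 190 FPKM with SCH. These ranges overlapped, and the log2 fold change of 0.06 ± 0.047 (SE) did not pass (edgeR quasi-likelihood adjusted p = 0.282). With library totals as the only scale it did pass, as did ITGA5, both raised. ITGB5, a partner of alphaV that binds vitronectin, fell by 0.34 on the log2 scale. ITGB8 (ENSG00000105855, chr7:20330702-20415754), a partner of alphaV that binds latent TGF-beta, was scarce, at 0.186, 0.277 and 0.347 FPKM with vehicle and 0.181, 0.172 and 0.168 FPKM with SCH. The SCH samples were all lower, though only just below vehicle replicate 1. Its log2 fold change was -0.64 ± 0.21 (SE) with an edgeR quasi-likelihood adjusted p of 0.0113, and this call was lost without vehicle replicate 3 and with limma, where the difference on the log2(FPKM + 1) scale was -0.11. ITGB4, the hemidesmosome subunit, was at -0.07 and did not pass. ITGB2 and ITGB3 did not pass either, and 51.6% of the exonic bases of ITGB3 are shared with an overlapping gene, so that its counts are uncertain.

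Among the laminin alpha chains, which carry the sites that integrins bind, 3 of the 5 fell and none rose (29.4% of all genes were lowered). LAMA1, which is among the 3, lost its call in most alternatives. LAMA4 (ENSG00000112769, chr6:112108760-112254939), a chain known from vessel walls and mesenchymal cells, had the largest change among the 25 subunit genes tested. It gave 1.19, 1.26 and 1.34 FPKM with vehicle and 0.468, 0.464 and 0.510 FPKM with SCH. Every SCH sample was lower than every vehicle sample. The log2 fold change was -1.40 ± 0.11 (SE), 0.379 times the vehicle level, with an edgeR quasi-likelihood adjusted p of 2.63e-10. On the log2(FPKM + 1) scale, which shrinks low values by construction, the same difference was -0.61. LAMA3 (ENSG00000053747, chr18:23689443-23956222), the epithelial alpha3 chain, fell from 4.57, 4.97 and 4.83 FPKM to 3.50, 3.10 and 2.97 FPKM. All of its SCH samples lay below the vehicle samples, with a log2 fold change of -0.59 ± 0.065 (SE) and an edgeR quasi-likelihood adjusted p of 4.33e-08. LAMA1 was at -0.32 with an edgeR quasi-likelihood adjusted p of 0.0424, a call lost when any sample other than vehicle replicate 2 was left out, with library totals as the only scale, with no filter, under DESeq2 (adjusted p = 0.108) and with limma, where the difference on the log2(FPKM + 1) scale was -0.09. LAMA5, the most abundant alpha chain, was at 0.14 (edgeR quasi-likelihood adjusted p = 0.0561) and LAMA2 at -0.22, neither past the threshold.

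The beta chains moved in both directions. LAMB3 (ENSG00000196878, chr1:209614870-209652466), a beta chain that joins LAMA3 in a trimer, was the most abundant laminin gene. Its levels were 123, 120 and 114 FPKM with vehicle and 175, 158 and 145 FPKM with SCH. The SCH samples were more spread than the vehicle samples but did not overlap them. The log2 fold change was 0.41 ± 0.055 (SE) with an edgeR quasi-likelihood adjusted p of 8.01e-07. LAMB2 rose by 0.37 on the log2 scale, while LAMB1 fell by 0.28. LAMC1 (ENSG00000135862, chr1:183023460-183145592), the gamma chain of most laminins, was at 32.8, 34.3 and 34.2 FPKM with vehicle and 34.1, 32.8 and 29.8 FPKM with SCH. These overlapped, and the log2 fold change of -0.07 ± 0.051 (SE) did not pass (edgeR quasi-likelihood adjusted p = 0.225). For LAMC1 and ITGB4 the sign turned with library totals as the only scale.

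**Figure D2:**
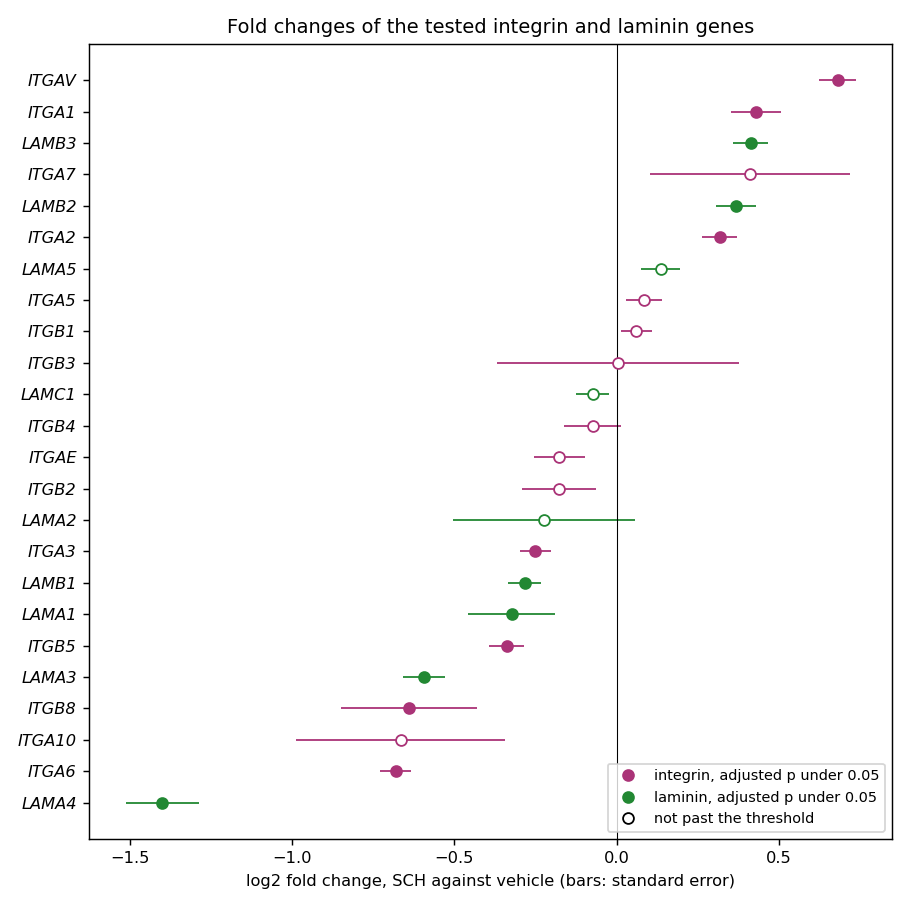
Log2 fold change, SCH against vehicle, of tested subunit genes in order of size; points are edgeR estimates, bars are 1 standard error, filled points passed an adjusted p of 0.05, and colours mark integrin and laminin genes. ITGAV is at the top at 0.68 and LAMA4 at the bottom at -1.40.

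The 5 genes with changes of at least 0.5 (ITGA6, ITGAV, ITGB8, LAMA3 and LAMA4) are spread over 4 chromosomes. Their gene bodies are long, as are those of the families: the 25 tested subunit genes had a median span of 79.5 kb, against 28.3 kb for all genes tested.

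Of the 13 genes that were too scarce to test, 5 encode leukocyte subunits (ITGAD, ITGAL, ITGAM, ITGAX and ITGB7), and ITGA2B encodes the platelet subunit. Not all leukocyte subunit genes were scarce. ITGAE was at 4.76 FPKM with vehicle and 4.23 with SCH, and ITGB2 at 2.05 and 1.82 FPKM. Both were tested and did not pass. ITGA8, ITGAL and LAMC3 had 0 counts in all 6 libraries, which allows up to 3 counts a group, or 0.0542 CPM with vehicle and 0.0544 with SCH, in terms of counting error only. ITGA9 had 9 counts with vehicle and 0 with SCH. Against a floor of 3 counts over the group this is 2.99-fold lower, with the 9 counts taken as exact. ITGAX had 0 counts with vehicle and 5 with SCH, or 1.67-fold higher against the same floor, with the 5 also taken as exact. Such counts are too few for more than a description. The summed counts with vehicle and with SCH were 1 and 4 for ITGA11, 2 and 9 for ITGA2B, 0 and 1 for ITGA4, and 4 and 2 for ITGAD. They were 9 and 16 for ITGAM, 6 and 7 for ITGB6, 2 and 4 for ITGB7, and 8 and 7 for LAMB4. The beta6 subunit, an epithelial partner of alphaV, thus had few counts in this line, as did the leukocyte alphaM and beta7 subunits. Exons of other genes cover 20.6% of the exonic bases of ITGB6 and 42.1% of those of ITGB7, so that these counts are uncertain.

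In order of level per gene length, the vehicle cells held ITGB1 (178 FPKM), ITGA3 (129), LAMB3 (119), ITGA6 (48.1) and LAMC1 (33.8) at the top. Sample ranges of these neighbours did not overlap. Further down, ITGA2, ITGB5 and LAMB2 lay between 26.95 and 25.6 FPKM, and each overlapped the next in this order. With SCH the top was ITGB1 (186 FPKM), LAMB3 (159) and ITGA3 (109), so that LAMB3 and ITGA3 had changed places. ITGA6 went from place 4 to place 8, in a run from ITGA2 (33.7 FPKM) to ITGA6 (30.2 FPKM), LAMB2 and LAMC1 among it, in which neighbours overlapped. Levels of different genes depend on the exon length used for each, which was the union of all exons in the annotation.

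Sums over the families changed less than the members with the largest changes. Integrin alpha subunits summed to 245 ± 2.65 FPKM (SD, n = 3) with vehicle and 222 ± 9.30 (SD, n = 3) with SCH. Integrin beta subunits summed to 211 ± 4.94 and 213 ± 5.63 FPKM, and laminin alpha chains to 19.9 ± 0.657 and 18.8 ± 1.803 FPKM. The laminin beta chains went from 166 ± 5.25 to 209.8 ± 19.1 FPKM, most of it LAMB3. Within the alpha integrins the share of ITGA6 went from 19.6% ± 0.838 to 13.6% ± 0.388, and the share of ITGAV from 4.68% ± 0.317 to 8.31% ± 0.194 (SD, n = 3). ITGA3 held 52.8% and 49.2%. Within the laminin alpha chains LAMA5 held 66.6% ± 0.870 with vehicle and 77.8% ± 0.970 with SCH, as LAMA3 went from 24.1% to 17.0% and LAMA4 from 6.37% to 2.59%. These shares are descriptions with no test.

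Subunits that share a dimer or trimer were then compared as ratios within a sample, where the scaling of the library cancels. Of 15 listed pairs, 11 had both genes at 1 FPKM or more in all samples. The 4 left out were LAMA4 to LAMC1 and ITGB3, ITGB6 and ITGB8 to ITGAV. In 10 of these the SCH and vehicle samples did not overlap, as in 62.4% of single genes; the share for other gene pairs was not computed, so nothing particular to subunit pairs is read from it. With 3 samples against 3 the exact two-sided permutation test cannot go below 0.1, which is the value for each of the 10, and the adjusted p over the 11 pairs is 0.11. LAMA3 to LAMB3 had log2 ratios of -4.75, -4.60 and -4.57 with vehicle and -5.64, -5.67 and -5.61 with SCH. The mean ratio went from 0.0402 to 0.0200, or 0.498 times. ITGB5 to ITGAV had log2 ratios of 1.26, 1.30 and 0.98 with vehicle and 0.19, 0.10 and 0.20 with SCH. Its mean ratio went from 2.26 to 1.12, or 0.493 times. In both pairs a gene that fell was set against a partner that rose. As log2 differences between group means, SCH minus vehicle, ITGA6 to ITGB1 was at -0.74, ITGA6 to ITGB4 at -0.60, ITGA3 to ITGB1 at -0.31 and LAMB1 to LAMC1 at -0.21. ITGAV to ITGB1 was at 0.62, ITGA2 to ITGB1 at 0.26 and LAMA5 to LAMC1 at 0.21. ITGA5 to ITGB1 was the only pair of the 11 that overlapped, at 0.02 (exact permutation p = 0.9, adjusted p = 0.9).

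**Figure D3:**
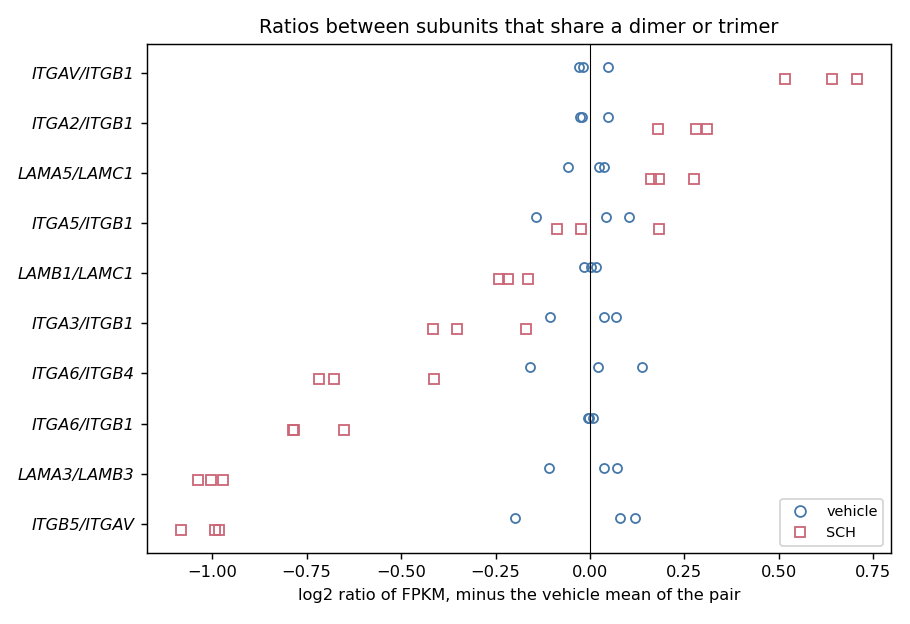
Log2 ratio of the FPKM of paired subunits in each sample, minus the vehicle mean of that pair; circles are the 3 vehicle samples and squares the 3 SCH samples. Among the pairs plotted, ITGA5/ITGB1 is the only one whose groups overlap, and LAMA3/LAMB3 and ITGB5/ITGAV lie about 1 log2 unit below 0 with SCH.

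LAMA3 with LAMB3 and ITGB5 with ITGAV parted most among the 11 pairs compared, so the upstream sequence of these genes is shown. RefSeq start sites (GRCh38.p14) were matched by symbol for 26 of the 38 genes, with 33 windows of 250 bases before a start. In the lines that follow, 5′ to 3′ on the strand of the gene, capitals mark letters TGANTCA, bound by AP-1, and GGGCGG or its reverse complement CCGCCC, bound by SP1. The LAMB3 stretch (chr1:209651395-209651624, minus strand) ends 21 bases before a start that lies 1092 bases inside the deposited gene. The LAMA3 line is the 30 bases around the nearer of a pair of AP-1 matches (chr18:23872940-23872969, plus strand), 69 bases before the start of a transcript that begins 183577 bases into the gene. That window overlaps annotated LAMA3 exons. The 30 bases lie outside its exon-free stretch, which runs from 250 to 181 bases before the start. The ITGAV and ITGB5 lines are the 250 bases before a start (chr2:186589806-186590055, plus strand, and chr3:124901419-124901668, minus strand).
LAMB3: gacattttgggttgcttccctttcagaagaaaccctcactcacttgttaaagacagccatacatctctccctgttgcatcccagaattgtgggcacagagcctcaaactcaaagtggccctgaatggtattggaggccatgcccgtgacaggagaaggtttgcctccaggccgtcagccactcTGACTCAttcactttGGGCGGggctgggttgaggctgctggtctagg
LAMA3: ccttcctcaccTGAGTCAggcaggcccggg
ITGAV: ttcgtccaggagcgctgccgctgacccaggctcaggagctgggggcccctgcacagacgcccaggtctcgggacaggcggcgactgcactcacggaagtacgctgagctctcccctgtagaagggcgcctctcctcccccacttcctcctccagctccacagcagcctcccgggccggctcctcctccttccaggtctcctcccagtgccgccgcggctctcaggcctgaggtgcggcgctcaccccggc
ITGB5: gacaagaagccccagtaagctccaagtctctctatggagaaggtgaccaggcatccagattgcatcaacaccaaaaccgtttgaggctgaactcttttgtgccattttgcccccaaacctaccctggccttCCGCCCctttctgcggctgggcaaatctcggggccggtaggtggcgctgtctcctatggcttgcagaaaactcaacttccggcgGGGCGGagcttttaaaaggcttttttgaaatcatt
The LAMB3 and LAMA3 windows shown held AP-1 letters, LAMB3 having risen and LAMA3 fallen. The other 2 LAMB3 windows, 137 and 41 bases inside the deposited gene, held none. The ITGAV window shown held none of the letters searched, nor did the other ITGAV window, 10140 bases inside the deposited gene. For ITGB5, a further window 14053 bases inside the gene held SP1 letters, and one 13734 bases inside held none of the letters searched. The AP-1 letters were in 2 of the 33 windows (6.06%) and in 6.57% of all 35116 RefSeq windows of this length, searched on both strands. SP1 letters were in 17 (51.5%) against 42.6%. GGAATG, bound by TEAD factors, was in 4 (12.1%) against 11.9%, and the E-box CACGTG in 1 (3.03%) against 6.35%. A match is a description of the letters and not a binding site.

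Of 81 other genes of integrin and laminin adhesion, listed by role, 70 were tested, 21 were raised and 24 were lowered (64.3%, against 58.7% of all genes), with a median log2 fold change of 0.01. Among the focal adhesion adaptors, which tie integrin tails to actin, 13 of 27 fell and 6 rose (29.4% and 29.3% of all genes). TLN2, a talin that activates integrins, was at -1.85, the adaptor LPP at -1.36 and the tensin TNS3 at -0.998, and KANK2 was at 0.62, TNS2 at 0.25 and CRK at 0.25 on the log2 scale. The more abundant talin TLN1 rose by 0.19. NEDD9 at 2.22 and TNS4 at -2.45, named after their values were seen, rest on low counts. Of the 11 tested kinases and partners of integrin-linked kinase, 2 fell and 3 rose (29.4% and 29.3% of all genes). RSU1 was at -0.70 and PTK2, the focal adhesion kinase, at -0.32, and LIMS1 (0.26) and SRC (0.23) were among the 3 raised.

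Ligands of integrins outside the laminins and collagens divided, with 5 raised and 4 lowered of 10 tested (29.3% and 29.4% of all genes). The matrix proteins THBS1 (-1.07), TNC (-0.97) and LTBP1 (-0.82) fell, and the cytokine TGFB1 (0.95), the adhesion receptor ICAM1 (0.94, with 23.6% of its exonic bases shared) and the RGD protein MFGE8 (0.80) rose. LTBP1 and TGFB1 both belong to the latent TGF-beta complex that alphaV integrins bind, and they moved apart. FN1, fibronectin, was at -0.06 and did not pass. The other laminin receptors numbered 5 and all changed (58.7% of all genes did), or 4 of 5 with upper quartile scaling, where DAG1 was lost. SDC1 (-0.67) and RPSA (-0.34) fell, and BCAM (0.88), which binds the LAMA5 chain, SDC4 (0.88) and DAG1 (0.11) rose, though the DAG1 call was lost without vehicle replicate 1 or 2 or SCH replicate 2. Among 9 membrane partners of integrins, 1 fell and 3 rose (29.4% and 29.3% of all genes). CAV1, the caveolin that coats membrane pits, fell by 1.17, and CD82 (0.75), PLAUR (0.43) and BSG (0.14) rose, the last not without vehicle replicate 3. Of 5 hemidesmosome partners only DST (0.15) passed (58.7% of all genes did). Its call was lost without vehicle replicate 1 or 2 or SCH replicate 1 or 2 and with limma. Upper quartile scaling also lost it and lowered 2 other genes of this list. Of 3 tested basement membrane partners, HSPG2 (-0.29) and the low-count FBLN1 (-0.94, named after its value was seen) fell (29.4% of all genes were lowered). The HSPG2 call was lost under DESeq2 and limma.

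**Figure D4:**
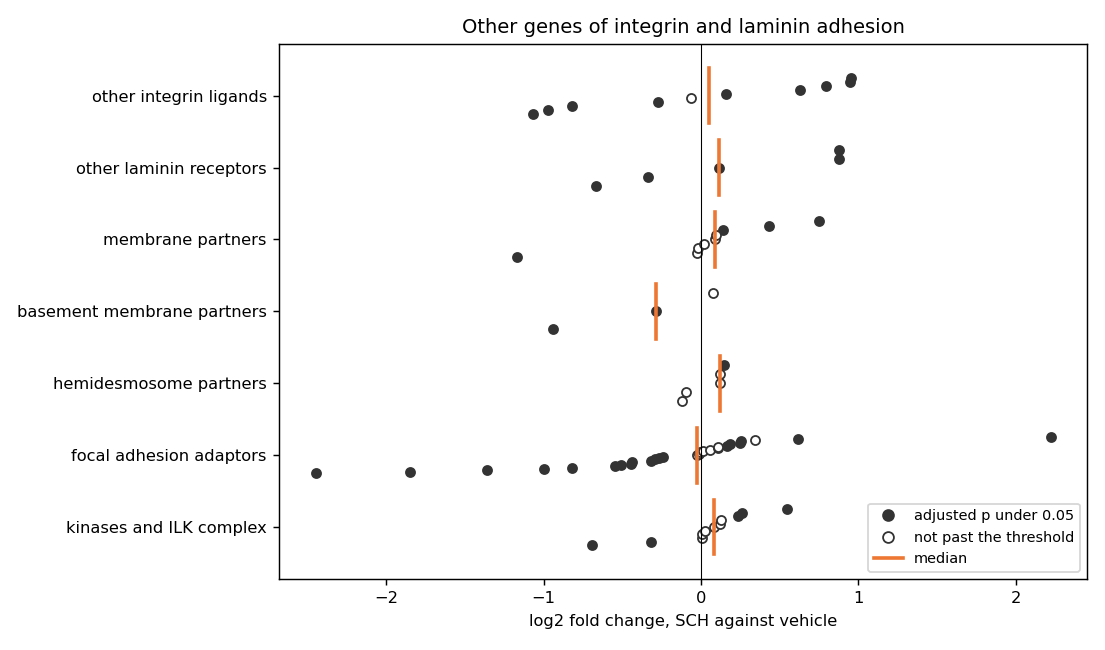
Log2 fold change, SCH against vehicle, of 7 lists of adhesion genes other than the subunits; each point is a gene, filled where the adjusted p was under 0.05, and orange bars are medians. The points of each list scatter on both sides of 0, and the focal adhesion adaptors reach from -2.45 to 2.22.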

How the data were processed

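Reads of poly(A) RNA were, per the submitters' processing notes, handled with CASAVA 1.8, HISAT2 2.0.5, featureCounts 1.5.0-p3 and DESeq2 1.20.0 on GRCh38. The authors deposited, for each of the 6 samples, raw counts per gene and FPKM values on the same 58735 genes, with an exonic gene length as a value of another kind. All gene IDs and coordinates match GENCODE release 29. The strand setting of the counting is not given in the sources used here, so genes that overlap cannot be told apart. The counts were tested with edgeR 4.0.16 in R 4.3.3 (TMM scaling, filterByExpr, quasi-likelihood F test, Benjamini-Hochberg adjustment over 14736 genes, threshold 0.05). The biological coefficient of variation was 5.17%. FPKM was used for levels, sums, shares and ratios, with an exact permutation test of the ratios. On simulated counts for 14739 genes, 200 of them changed, the fit recovered 83% of changes of 0.5 and 97% of changes of 1 on the log2 scale, and 3.23% of its calls were false. The simulation gave every gene the same dispersion and changed far fewer genes than the 58.7% called in the data. It therefore does not give the error rate of the calls reported here. Library correlations were 0.993 to 0.994 within groups and 0.968 to 0.971 between groups.

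The subunit genes and adhesion lists were chosen with earlier results of these data known. Values in every sample are given for subunit genes past the threshold whose groups stand apart by 0.5 or more on the log2 scale, and for the 5 with the highest vehicle FPKM. Per list, up to 3 raised and 3 lowered genes averaging 100 counts or more are named. TLN1, FN1, NEDD9, TNS4 and FBLN1 were named after their values were seen. Alternatives used DESeq2 1.42.0, limma 3.58.1 on log2(FPKM + 1) or log2(FPKM + 0.1), other scalings and filters, a block and fits without each sample. Protein sequences were not used here. A tested gene that is in the counts, and its ratio, are not reported here.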

Additional observations from a re-analysis of the deposited data

How the results depend on the processing

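Of the 25 tested subunit genes, 13 had the same sign and the same call in every one of the 16 other settings that tested them. Genes of low level, LAMA4 and ITGA7 among these 13, were not tested by limma on genes of at least 1 FPKM. Asking for a log2 fold change of at least 1 left 1292 of all genes, 1 subunit gene, 4 focal adhesion adaptors, 1 ligand, 1 membrane partner, and 0 kinases, hemidesmosome partners, basement membrane partners and other laminin receptors. The 1 call among hemidesmosome partners became 2 with library size only and with no filter, all raised. With upper quartile scaling it became 2 of the opposite direction, both lowered. It became 0 with limma on log2(FPKM + 1), log2(FPKM + 0.1) and genes of at least 1 FPKM, and 0 to 2 without single replicates. The 2 calls among basement membrane partners became 1 with DESeq2 and with limma on log2(FPKM + 1) and log2(FPKM + 0.1), and 0 with genes of at least 1 FPKM, where fewer genes were tested. With library size only and without SCH replicate 3 they became 3, in each case 1 raised and 2 lowered. Genes called ranged from 7809 to 8489 without single replicates, where fewer samples were fitted. The direction turned for ITGB3 with upper quartile scaling (-0.0284), limma on log2(FPKM + 1) (-0.000207) and log2(FPKM + 0.1) (-0.0316), for ITGB4 and LAMC1 with library size only (0.0295 and 0.0294), and without single replicates, where ITGB3 ran from -0.27 to 0.34, ITGB4 from -0.12 to 0.0348 and LAMA2 from -0.40 to 0.0545. The ITGA5 to ITGB1 ratio ran from -0.0552 to 0.0798 without single replicates. The cause of these changes was not tested. Without SCH replicate 2 or vehicle replicate 3 ITGAE passed, without vehicle replicate 3 ITGB2 passed, and without vehicle replicate 2 or SCH replicate 3 LAMA5 passed. ITGAE also passed with upper quartile scaling, LAMA5, ITGA5 and ITGB1 with library size only, and, among the 25, ITGA10 and LAMA5 with no filter. That last setting tested 35 subunit genes, scarce ones among them, and 16 passed, 7 raised and 9 lowered. Same-numbered samples deviated together with correlations of 0.05, -0.02 and 0.02, and differently numbered ones with -0.08 to 0.07. Deviations from a mean of 3 samples offset each other, so these values cannot show whether same-numbered samples share more than a number. The replicate block gave 8705 genes and 17 subunit genes, with ITGA10, ITGAE and LAMA5 gained, and ITGB3 at -0.0150. Low counts limit ITGA7, ITGA10, ITGB3, ITGB8, LAMA1 and LAMA2.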
